A study of Mus musculus with 12 samples.

Results

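The genes described here encode proteins with which pancreatic beta cells sense glucose and turn it into electrical activity: Slc2a2, G6pc2, Kcnj11, Abcc8, Cacna1c, Cacna1d and Trpm5. They were chosen by gene symbol, as every probe set of the array annotated to 1 of these symbols alone. That gave 13 probe sets for 7 genes, out of 45141 probe sets and 17097 genes with a symbol of their own, and all 7 genes were among the 12825 tested. Expression was measured on Affymetrix arrays in islets of Langerhans, the hormone-secreting cell clusters of the pancreas, from mice 12 weeks old that ate standard chow. The 4 genotypes had 3 arrays each: hIAPP/BACE2-KO (labelled hIAPP-TgxBACE2-KO), with a human islet amyloid polypeptide transgene and no BACE2, an aspartyl protease; BACE2-KO, without BACE2 and without the transgene; hIAPP (labelled hIAPP-Tg), with the transgene and with BACE2; and wild type (WT). The labels give the strain B6;129P2-Bace2tm1Bdes/J for all 4 groups, the wild type included. The sources used here do not give the promoter of the transgene, nor say whether an array holds islets of 1 mouse or several. The p-values therefore cover only the spread among these 12 arrays, which may be technical.

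Beta cells take up glucose through the transporter encoded by Slc2a2, and glucokinase phosphorylates it. G6pc2 encodes an islet glucose-6-phosphatase that works against glucokinase. The ATP made from glucose closes the KATP channel, whose pore is encoded by Kcnj11 and whose sulphonylurea-binding subunit is encoded by Abcc8. The membrane then depolarises and opens L-type calcium channels, with pores encoded by Cacna1c and Cacna1d, and the calcium that enters triggers insulin release. Trpm5 encodes a cation channel opened by intracellular calcium, known from taste cells, that adds to the depolarisation of mouse beta cells.

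Trpm5 was higher in islets without BACE2, with and without the transgene, and it was the only one of the 7 genes past the test. Averaged over both transgene states, it rose by 0.61 log2 units with BACE2 loss (SE 0.12, limma adjusted p = 0.0315), which is a factor of 1.53. The mean level was 9.59 ± 0.12 log2 units in the 6 arrays without BACE2, against 8.97 ± 0.34 in the 6 arrays with it (SD). In that comparison 1 of 7 genes was called at an adjusted p under 0.05, where 118 of all 12825 genes, or 0.92%, were called. The other 6 genes passed in none of the 8 comparisons made. Slc2a2, the glucose transporter gene, had its 2 lowest values of the series in hIAPP arrays. Abcc8, which encodes the regulatory KATP subunit, differed by -0.46 log2 units between hIAPP/BACE2-KO and WT arrays. Neither difference passed the test.

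**Figure D1:**
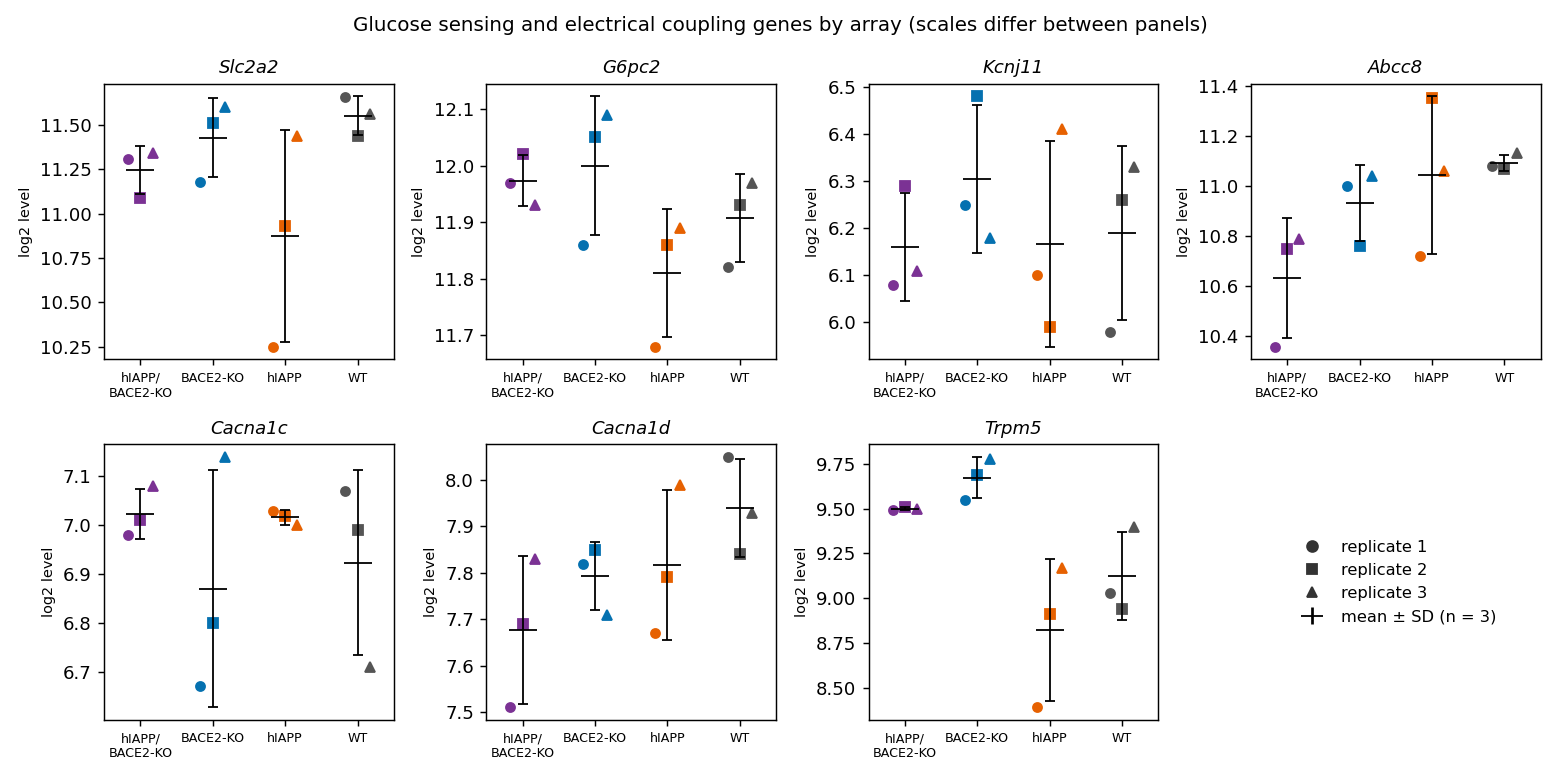
Deposited log2 level (vertical axis) of the 7 genes in each of 12 arrays, by genotype (horizontal axis); symbols mark the replicate numbers and the bars the mean ± SD of 3 arrays. The 6 Trpm5 values without BACE2 lie between 9.49 and 9.78, all above the 6 with BACE2, and the hIAPP values of Slc2a2 spread from 10.25 to 11.44.

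All arrays shared 1 scale, with medians from 4.22 to 4.35. The islet label was checked on markers: of 14 beta cell markers outside the genes described here, 11 were on the array and all 11 were above the filter level of 3.43. Their mean per array ran from 10.08 to 10.38 in hIAPP/BACE2-KO, from 10.37 to 10.45 in BACE2-KO, from 9.82 to 10.42 in hIAPP and from 10.36 to 10.51 in WT. The value of 9.82, in hIAPP replicate 1, stood apart below the other 11 arrays, whose lowest was 10.08. Markers of the exocrine acinar cells that surround islets were also present, 10 of 10 above the filter level. Their mean ran from 10.29 to 11.22 in hIAPP/BACE2-KO, from 10.53 to 11.79 in BACE2-KO, from 10.45 to 11.26 in hIAPP and from 9.66 to 12.09 in WT. Macrophage markers (10 of 10 above the filter level) had means from 5.94 to 7.09 in hIAPP/BACE2-KO, 6.02 to 6.39 in BACE2-KO, 6.73 to 6.99 in hIAPP and 6.11 to 6.36 in WT. Markers of glucagon-secreting alpha cells (5 of 5 above the filter level) had means from 9.73 to 9.94 in hIAPP/BACE2-KO, 9.57 to 10.01 in BACE2-KO, 9.25 to 9.68 in hIAPP and 9.40 to 9.68 in WT. For stellate cells, the fibroblast-like cells of the pancreas (7 of 9 above the filter level), the means were 5.51 to 6.21 in hIAPP/BACE2-KO, 5.20 to 5.40 in BACE2-KO, 5.42 to 5.80 in hIAPP and 4.92 to 5.61 in WT. Delta cell markers (5 of 5) had means of 8.22 to 8.55 in hIAPP/BACE2-KO, 7.84 to 8.71 in BACE2-KO, 8.20 to 8.32 in hIAPP and 8.24 to 8.55 in WT.

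The Trpm5 probe set with the highest mean, 1418783_PM_at, represented the gene. It read 9.49, 9.51 and 9.50 in hIAPP/BACE2-KO arrays, 9.55, 9.69 and 9.78 in BACE2-KO arrays, 8.39, 8.91 and 9.17 in hIAPP arrays and 9.03, 8.94 and 9.40 in WT arrays. Every array without BACE2 was above every array with it, a pattern that 92 of the 12825 genes (0.717%) showed. From high to low the group means were 9.67 ± 0.12 in BACE2-KO, 9.5 ± 0.01 in hIAPP/BACE2-KO, 9.12 ± 0.24 in WT and 8.82 ± 0.40 in hIAPP (SD, n = 3 each). The lowest BACE2-KO array (9.55) lay above the highest hIAPP/BACE2-KO array (9.51), a difference in means that was not called (-0.17 for hIAPP/BACE2-KO against BACE2-KO, SE 0.17), and WT and hIAPP arrays overlapped.

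The simple comparisons ran the same way without passing the adjusted threshold. Trpm5 was 0.55 higher in BACE2-KO than in WT arrays (SE 0.17, limma adjusted p = 0.467) and 0.68 higher in hIAPP/BACE2-KO than in hIAPP arrays (SE 0.17, limma adjusted p = 0.245). These 2 comparisons share no array. The difference between them, the interaction of transgene and BACE2 loss, was 0.13 with a 95% interval from -0.39 to 0.64 (limma adjusted p = 1). The transgene averaged over both BACE2 states gave -0.24 for Trpm5 (95% interval from -0.49 to 0.02), and 0.02 with beta cell markers as a covariate.

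All 3 Trpm5 probe sets gave like values for BACE2 loss. Tested over all 45037 probe sets other than controls, of which 214 or 0.475% were called, the difference was 0.61 on 1418783_PM_at (adjusted p = 0.0283), 0.68 on 1443413_PM_s_at (adjusted p = 0.0494) and 0.64 on 1449224_PM_at (adjusted p = 0.222). The probe sets read the same transcripts in the same arrays, so they are not independent of each other, and an "s" in the name marks probes that may also match other transcripts. On 1443413_PM_s_at the values were 9.16, 9.45 and 9.18 in hIAPP/BACE2-KO and 9.34, 9.41 and 9.38 in BACE2-KO arrays, against 7.86, 8.54 and 8.83 in hIAPP and 8.57, 8.85 and 9.18 in WT arrays. Only WT replicate 3 reached into the range without BACE2. On 1449224_PM_at the values were 6.82, 6.92 and 6.76 in hIAPP/BACE2-KO and 6.89, 6.90 and 7.10 in BACE2-KO arrays, against 5.38, 6.39 and 6.80 in hIAPP and 6.36, 6.04 and 6.58 in WT arrays. There hIAPP replicate 3 did so.

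**Figure D2:**
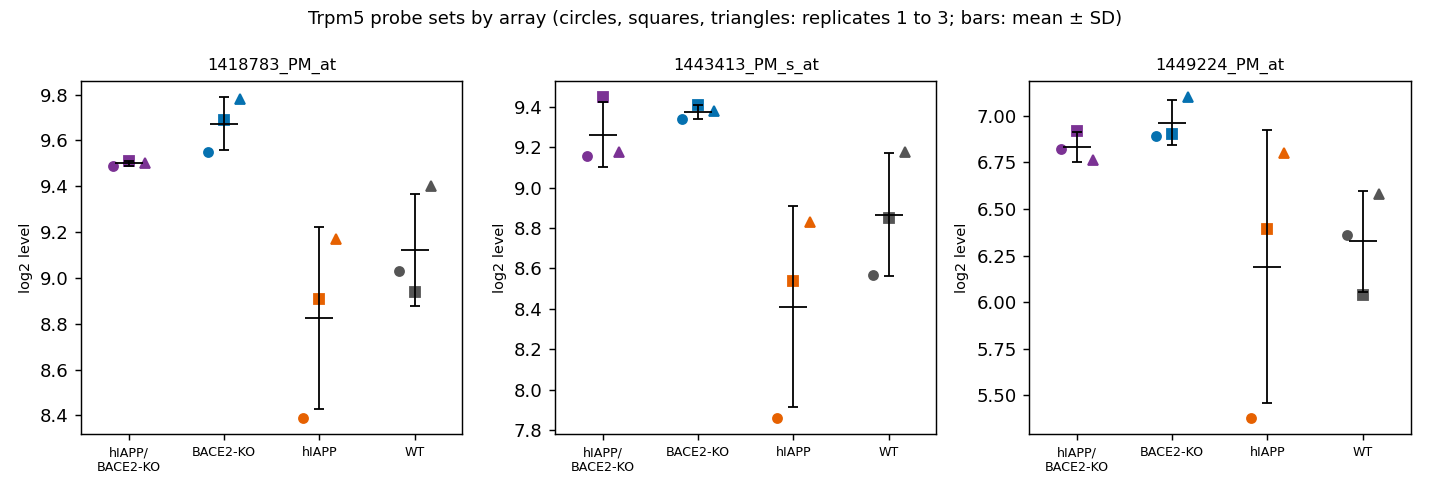
Log2 level (vertical axis) of the 3 Trpm5 probe sets in each array by genotype; bars are mean ± SD of 3 arrays. On 1418783_PM_at no array with BACE2 reaches those without it, while 1 WT array (9.18) does on 1443413_PM_s_at and 1 hIAPP array (6.80) does on 1449224_PM_at.

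The Trpm5 call lay near its threshold. Leaving out 1 array at a time kept the difference between 0.51 and 0.70. The call was lost in 8 of these 12 fits, those without hIAPP/BACE2-KO replicates 1, 2 or 3, BACE2-KO replicates 2 or 3, hIAPP replicate 2, or WT replicates 1 or 2 (adjusted p from 0.0594 to 0.102). It was also lost with the mean over the 3 probe sets (0.64, adjusted p = 0.0845) and without a variance trend (0.61, adjusted p = 0.0552). Trpm5 moved with the beta cell markers within genotypes (Pearson r = 0.83 over the 12 arrays after the genotype means were taken out). With the mean of the 11 markers as a covariate, an alternative chosen after seeing the data, the difference for BACE2 loss was 0.57 (SE 0.07, adjusted p = 0.00424). In the same comparison alpha cell markers were higher in 5 of 5 genes (median 0.13, 3 at an unadjusted p under 0.05), and 7 of 10 macrophage markers were lower (median -0.31, 2 at that threshold), with none called. The part of these markers in the Trpm5 difference was not tested.

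Promoter sequences from RefSeq (GRCm38.p6) were matched by symbol for 5 of the 7 genes. The 250 bases before the annotated start are shown for Trpm5, the gene that was called, and for G6pc2 and Slc2a2, which among the 7 had the highest Pearson r with it over the 12 arrays. By Spearman rho Kcnj11 (0.42) came before Slc2a2 (0.33). Capitals mark the E-box letters CANNTG, which bind basic helix-loop-helix factors such as NeuroD1, and the homeodomain core TAAT, found in sites of factors such as Pdx1, on either strand. These 2 patterns share no base in the sequences shown.
Trpm5, chr7:143094643-143094892, minus strand: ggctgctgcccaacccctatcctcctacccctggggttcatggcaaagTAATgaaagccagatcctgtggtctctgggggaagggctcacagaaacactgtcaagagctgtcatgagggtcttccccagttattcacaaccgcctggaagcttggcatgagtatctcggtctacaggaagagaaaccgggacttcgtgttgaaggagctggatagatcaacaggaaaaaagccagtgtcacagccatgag
G6pc2, chr2:69210823-69211072, plus strand: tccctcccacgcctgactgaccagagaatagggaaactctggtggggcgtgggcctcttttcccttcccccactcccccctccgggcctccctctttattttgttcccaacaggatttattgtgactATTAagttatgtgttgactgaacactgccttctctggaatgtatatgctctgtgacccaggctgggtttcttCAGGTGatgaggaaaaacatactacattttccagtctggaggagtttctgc
Slc2a2, chr3:28697653-28697902, plus strand: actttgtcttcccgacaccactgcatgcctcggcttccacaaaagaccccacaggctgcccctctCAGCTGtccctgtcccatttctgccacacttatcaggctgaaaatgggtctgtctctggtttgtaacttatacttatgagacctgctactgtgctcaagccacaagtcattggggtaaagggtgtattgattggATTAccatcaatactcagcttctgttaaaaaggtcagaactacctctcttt
Counted back from the start, the Trpm5 window holds 1 TAAT core at position -202 and 0 E-boxes. The G6pc2 window, the one at the gene's annotated start out of 2 in the table, has an E-box at -51 and a TAAT core at -123. The Slc2a2 window has an E-box at -185 and a TAAT core at -51. Of the 32851 promoter windows of this length in the RefSeq table, 66.2% hold CANNTG and 54.9% hold TAAT, so matches of this kind are common.

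Slc2a2 has 1 probe set, 1449067_PM_at. It read 11.31, 11.09 and 11.34 in hIAPP/BACE2-KO arrays, 11.18, 11.51 and 11.60 in BACE2-KO arrays, 10.25, 10.93 and 11.44 in hIAPP arrays and 11.66, 11.44 and 11.56 in WT arrays. The hIAPP arrays spread over 1.19 log2 units and WT arrays over 0.22, and the highest hIAPP array met the lowest WT array at 11.44. Ordered from low to high, the means were 10.87 ± 0.60 in hIAPP, 11.25 ± 0.14 in hIAPP/BACE2-KO, 11.43 ± 0.22 in BACE2-KO and 11.55 ± 0.11 in WT (SD, n = 3 each), and each pair of neighbours in this order overlapped. Between hIAPP/BACE2-KO and WT arrays the difference was -0.31 (SE 0.22, limma adjusted p = 0.745).

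The Slc2a2 difference between hIAPP and WT arrays was -0.68 (95% interval from -1.16 to -0.20, unadjusted p = 0.00932, limma adjusted p = 0.95). Averaged over BACE2 states the transgene gave -0.43 (95% interval from -0.77 to -0.09, adjusted p = 0.644). Its interaction with BACE2 loss was 0.5 (95% interval from -0.18 to 1.18). In bulk islets fewer beta cells and less RNA per beta cell cannot be told apart. The beta cell markers moved with Slc2a2 over the 12 arrays (Pearson r = 0.88, Spearman rho = 0.84), and hIAPP replicate 1 was lowest in both. Without that array the difference between hIAPP and WT was -0.37, and without hIAPP replicate 3 it was -0.96. Leaving out any other hIAPP or WT array gave values from -0.74 to -0.63. With the marker mean as a covariate, an alternative chosen after seeing the data, the difference was -0.24 (SE 0.17). Of 13 measured genes of the full beta cell list, Slc2a2 and G6pc2 among them, 13 were lower in hIAPP than in WT arrays with a median of -0.33, against a median of -0.03 over all genes, and 0 were called. Markers of other cells moved in that comparison too: 9 of 10 macrophage markers were higher (median 0.73), 7 of 7 stellate cell markers were higher (median 0.36) and 5 of 5 delta cell markers were lower (median -0.18), with 0 called. Their part in the Slc2a2 difference was not tested.

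**Figure D3:**
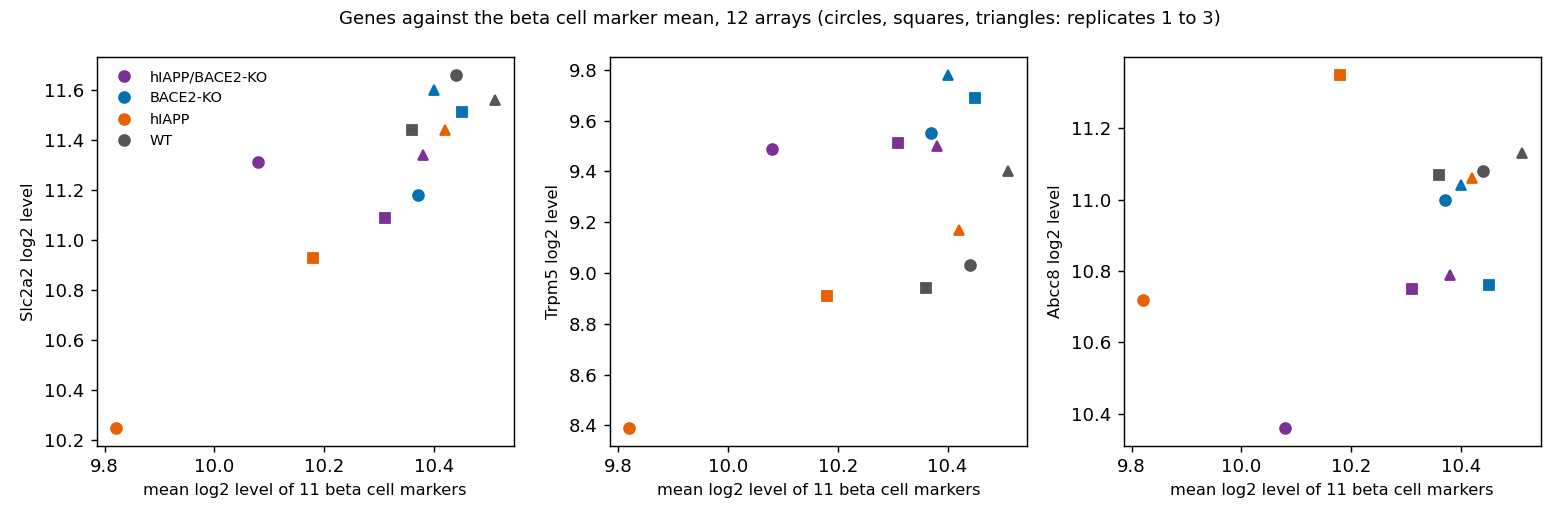
Log2 level of Slc2a2, Trpm5 and Abcc8 (vertical axes) against the mean log2 level of 11 beta cell markers (horizontal axis) in 12 arrays, coloured by genotype with symbols for replicate numbers. The hIAPP array with a marker mean of 9.82 has the lowest Slc2a2 (10.25) and Trpm5 (8.39) values, and at like marker means the arrays without BACE2 lie higher in Trpm5.

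G6pc2, whose product opposes glucokinase, was measured by 1423529_PM_at. It read 11.97, 12.02 and 11.93 in hIAPP/BACE2-KO arrays, 11.86, 12.05 and 12.09 in BACE2-KO arrays, 11.68, 11.86 and 11.89 in hIAPP arrays and 11.82, 11.93 and 11.97 in WT arrays. In order the means were 12.00 ± 0.12 in BACE2-KO, 11.97 ± 0.05 in hIAPP/BACE2-KO, 11.91 ± 0.08 in WT and 11.81 ± 0.11 in hIAPP (SD, n = 3 each), and neighbours overlapped. The difference between hIAPP/BACE2-KO and hIAPP arrays was 0.16 (95% interval from -0.01 to 0.34, limma adjusted p = 0.632). BACE2 loss averaged over the transgene gave 0.13 (SE 0.06, adjusted p = 0.42).

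The KATP channel subunits were each read by 2 probe sets. Abcc8 on 1455765_PM_a_at read 10.36, 10.75 and 10.79 in hIAPP/BACE2-KO arrays, 11, 10.76 and 11.04 in BACE2-KO arrays, 10.72, 11.35 and 11.06 in hIAPP arrays and 11.08, 11.07 and 11.13 in WT arrays. The WT arrays spanned 0.06 log2 units, and all hIAPP/BACE2-KO and all BACE2-KO arrays lay below them. How many of all genes separate in this way was not counted. For Slc2a2 and Cacna1d, too, all hIAPP/BACE2-KO arrays lay below all WT arrays, and neither difference was called. The Abcc8 means, from low to high, were 10.63 ± 0.24 in hIAPP/BACE2-KO, 10.93 ± 0.15 in BACE2-KO, 11.04 ± 0.32 in hIAPP and 11.09 ± 0.03 in WT (SD, n = 3 each), with overlap between each pair of neighbours. The difference between hIAPP/BACE2-KO and WT was -0.46 (95% interval from -0.78 to -0.14, limma adjusted p = 0.36), and between hIAPP/BACE2-KO and hIAPP -0.41 (95% interval from -0.73 to -0.09, adjusted p = 0.457). For BACE2 loss averaged over the transgene, the difference was -0.29 (SE 0.10, adjusted p = 0.306). In the test over all probe sets the second Abcc8 probe set, 1457066_PM_at, gave -0.19 (SE 0.13, adjusted p = 0.728). The lowest array of both probe sets was hIAPP/BACE2-KO replicate 1, at 10.36 and 8.93, and without it the difference from WT was -0.32. With beta cell markers as a covariate that difference was also -0.32 (SE 0.13, adjusted p = 0.496).

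Kcnj11 on 1455417_PM_at read 6.08, 6.29 and 6.11 in hIAPP/BACE2-KO arrays, 6.25, 6.48 and 6.18 in BACE2-KO arrays, 6.10, 5.99 and 6.41 in hIAPP arrays and 5.98, 6.26 and 6.33 in WT arrays. The means, 6.30 ± 0.16 in BACE2-KO, 6.16 ± 0.11 in hIAPP/BACE2-KO, 6.17 ± 0.22 in hIAPP and 6.19 ± 0.19 in WT (SD, n = 3 each), came from overlapping arrays. The 95% interval of the difference from WT was -0.36 to 0.30 in hIAPP/BACE2-KO, -0.21 to 0.44 in BACE2-KO and -0.35 to 0.30 in hIAPP. The other Kcnj11 probe set, 1450515_PM_at, had means from 4.74 to 4.97. Over the 12 arrays Kcnj11 and Abcc8 had a Pearson r of -0.04 (Spearman rho -0.06) on the probe sets that represent them.

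Among the L-type calcium channel pores, Cacna1d on 1427974_PM_s_at read 7.51, 7.69 and 7.83 in hIAPP/BACE2-KO arrays, 7.82, 7.85 and 7.71 in BACE2-KO arrays, 7.67, 7.79 and 7.99 in hIAPP arrays and 8.05, 7.84 and 7.93 in WT arrays. Between hIAPP/BACE2-KO and WT arrays the difference was -0.26 (95% interval from -0.51 to -0.02, limma adjusted p = 0.554). The second Cacna1d probe set, 1428051_PM_a_at, gave 0.11 for that comparison (SE 0.16), the mean over both gave -0.08, and beta cell markers as a covariate gave -0.15. From low to high the means were 7.68 ± 0.16 in hIAPP/BACE2-KO, 7.79 ± 0.07 in BACE2-KO, 7.82 ± 0.16 in hIAPP and 7.94 ± 0.11 in WT (SD, n = 3 each), and neighbours overlapped. That second probe set did not follow the first (Pearson r = 0.12, Spearman rho = 0.14 over 12 arrays) and had means from 5.68 to 5.86. For the averaged transgene effect these probe sets gave values of opposite sign, -0.12 on 1427974_PM_s_at and 0.13 on 1428051_PM_a_at, neither called.

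Cacna1c on 1435730_PM_at read 6.98, 7.01 and 7.08 in hIAPP/BACE2-KO arrays, 6.67, 6.80 and 7.14 in BACE2-KO arrays, 7.03, 7.02 and 7 in hIAPP arrays and 7.07, 6.99 and 6.71 in WT arrays. The groups overlapped, with means from 6.87 to 7.02. BACE2 loss averaged over the transgene gave -0.02 (95% interval from -0.23 to 0.18) and the averaged transgene effect 0.12 (95% interval from -0.08 to 0.33). The second Cacna1c probe set, 1421297_PM_a_at, did not follow the first across the 12 arrays (Pearson r = -0.02, Spearman rho = -0.21) and had means from 5.67 to 6.03. For the averaged transgene effect it gave -0.11 (SE 0.12), opposite in sign to the first. In hIAPP against WT it gave -0.36 (SE 0.18), where the first gave 0.09. None of these was called.

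**Figure D4:**
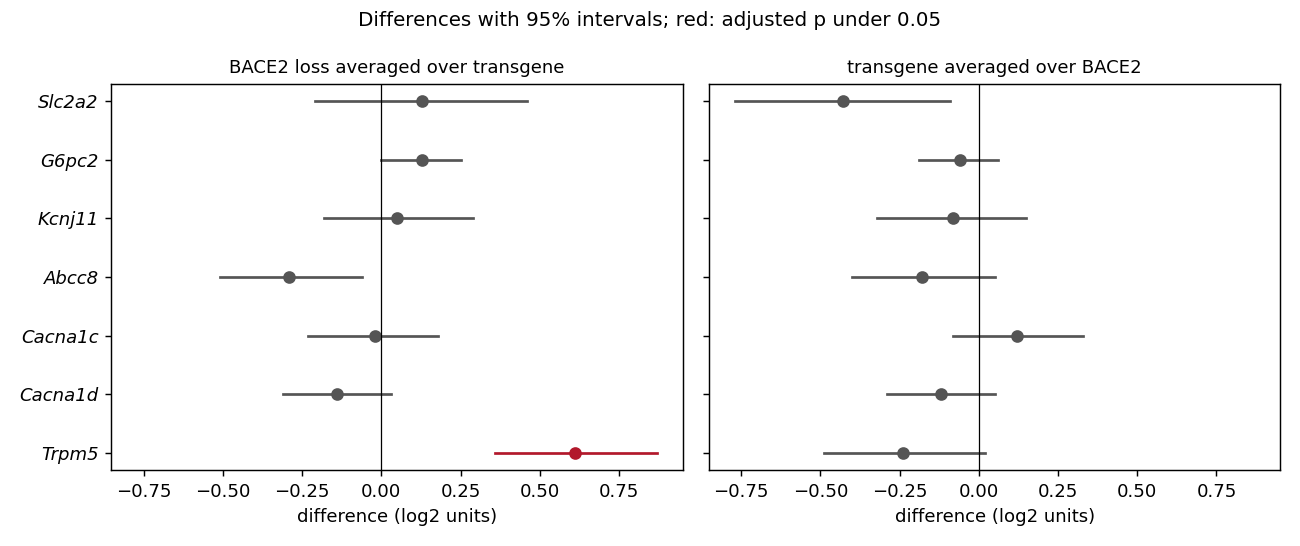
Difference in log2 units (horizontal axis) for BACE2 loss averaged over the transgene and for the transgene averaged over BACE2 states, for the 7 genes; points are the fitted differences and lines their 95% intervals. For BACE2 loss Trpm5 at 0.61 is the gene past the adjusted threshold, and for the transgene Slc2a2 lies lowest at -0.43 without passing it.

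Counts over the 7 genes are given beside those over all genes. At an adjusted p under 0.05, none of the 7 was called in hIAPP against WT (0.0156% of all genes called), BACE2-KO against WT (0.125%), hIAPP/BACE2-KO against WT (0.133%), hIAPP/BACE2-KO against hIAPP (0.101%), hIAPP/BACE2-KO against BACE2-KO (0%), the averaged transgene effect (0.0078%) or the interaction (0.0078%). At an unadjusted p under 0.05, 1 of 7 passed in hIAPP against WT (Slc2a2, lower), where 4.52% of all genes did. In BACE2-KO against WT it was 1 of 7 (Trpm5, higher; 6.28% of all genes). In hIAPP/BACE2-KO against WT it was 3 of 7 (Abcc8 and Cacna1d lower, Trpm5 higher; 8.43% of all genes). Against hIAPP, 2 of 7 passed in hIAPP/BACE2-KO arrays (Abcc8 lower, Trpm5 higher; 8.37%), and against BACE2-KO, 0 of 7 (4.44%). The averaged transgene effect had 1 of 7 (Slc2a2, lower; 7.59%), averaged BACE2 loss 3 of 7 (Trpm5 and G6pc2 higher, Abcc8 lower; 11.4%) and the interaction 0 of 7 (2.4%). Comparisons with WT share the WT arrays, and the averaged effects are made of the simple ones, so these counts are not independent. The median over the 7 genes lay between -0.14 and 0.06 in all 8 comparisons, and the median over all genes between -0.03 and 0.03.

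From array to array, Trpm5 moved with G6pc2 (Pearson r = 0.86, Spearman rho = 0.75 over 12 arrays, and 0.76 within genotypes) and with Slc2a2 (Pearson r = 0.65, Spearman rho = 0.33, and 0.84 within genotypes). Slc2a2 and G6pc2 had a Pearson r of 0.66 (Spearman rho 0.37, and 0.64 within genotypes). Abcc8 moved with Cacna1d (Pearson r = 0.66, Spearman rho = 0.64) and not with Trpm5 over all arrays (Pearson r = -0.20, Spearman rho = -0.32), although within genotypes that pair had 0.47. These values describe 12 arrays of 4 genotypes, and hIAPP replicate 1 was lowest in Slc2a2, G6pc2 and Trpm5. For the acinar marker mean, Pearson r over the 12 arrays ran from -0.35 for G6pc2 to 0.12 for Cacna1d, and within genotypes it was -0.55 for Trpm5, -0.54 for G6pc2 and -0.44 for Abcc8. With the acinar marker mean as a covariate, the Trpm5 difference for BACE2 loss was 0.61 (adjusted p = 0.0191).

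The genes with the patterns most like each of the 7, among 12825 over 12 arrays, are given as a description. For Trpm5 they were Zfyve9 (Pearson r = 0.93), Mcm3ap (0.92) and Pappa2 (0.92), with Spearman rho of 0.94, 0.92 and 0.90. For Slc2a2 they were Maob, a monoamine oxidase gene (0.95), Sf1 (0.92) and the phosphatase inhibitor gene Ppp1r1a (0.91), with rho of 0.89, 0.81 and 0.93. G6pc2 was followed by Cbs (0.93), A530047J11Rik (0.92) and Etv5 (0.91), and Abcc8 by Rbm47 (0.93), Ankrd13c (0.92) and Hs1bp3 (0.92). Cacna1d was followed by Ptpra (0.95), Card6 (0.94) and Rpa1 (0.93), Kcnj11 by Gpaa1 (0.88), Get4 (0.87) and 2210406O10Rik (0.87), and Cacna1c by Smc6 (0.86), Col18a1 (0.85) and Ass1 (0.85). None of these 21 genes was itself among the 7.

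Other genes of glucose metabolism and excitability were read from 9 lists with 109 genes, of which 79 were tested. In BACE2 loss averaged over the transgene 1 was called higher and 1 lower, where 118 of all 12825 genes (0.92%) were called. In that comparison 12.7% of the 79 genes had an unadjusted p under 0.05, near the 11.4% of all genes. In the other 7 comparisons none of the 79 was called. The median over these 79 genes was -0.01 for averaged BACE2 loss, against 0.02 over all genes. Scn3a, a voltage-gated sodium channel pore, fell by 0.66 (SE 0.12, limma adjusted p = 0.0263). It read 6.69, 6.50 and 6.78 in hIAPP/BACE2-KO and 6.30, 6.81 and 6.81 in BACE2-KO arrays, against 7.77, 7.55 and 7.14 in hIAPP and 7.11, 7.19 and 7.11 in WT arrays. All arrays without BACE2 lay below all with it, and how many of all genes did so was not counted. The difference was -0.32 with the mean over its probe sets, where the call was lost (adjusted p = 0.0763), and 5 of 12 fits without an array, hIAPP/BACE2-KO replicate 2, hIAPP replicate 2 and WT replicates 1, 2 and 3, lost it too (adjusted p from 0.0506 to 0.0761). Me1, the cytosolic malic enzyme, rose by 0.27 (SE 0.05, adjusted p = 0.0362). Its levels were 8.59, 8.73 and 8.64 in hIAPP/BACE2-KO and 8.76, 8.63 and 8.65 in BACE2-KO arrays, against 8.35, 8.34 and 8.39 in hIAPP and 8.38, 8.52 and 8.40 in WT arrays. Every array without BACE2 was above every array with it, as in 92 of the 12825 genes (0.717%). The call was lost in 11 of 12 fits without an array (adjusted p from 0.0561 to 0.114), all except the fit without hIAPP/BACE2-KO replicate 1. The Me1 call was also lost with no filter on level (adjusted p = 0.052), median centring (0.0551), no variance trend (0.071) and the mean over its probe sets (difference 0.18, adjusted p = 0.221), 15 of 23 settings in all.

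List by list, with differences for averaged BACE2 loss unless said otherwise, the genes named are among those with the smallest p of each list. Of 13 genes of glucose entry and phosphorylation none was called. Mlxipl, which encodes a glucose-responsive transcription factor, differed by -0.46 (SE 0.10, limma adjusted p = 0.0659) and was called in 5 of 23 other settings (lowest adjusted p = 0.0214), and Hk2, a hexokinase, by 0.60 for the averaged transgene (SE 0.18, adjusted p = 0.644). Of 11 genes of mitochondrial coupling, Gpd2, the mitochondrial glycerol-3-phosphate dehydrogenase, differed by -0.49 (SE 0.14, adjusted p = 0.165), besides Me1. Among 6 sodium channel genes the auxiliary subunit gene Scn2b differed by 0.46 (SE 0.11, adjusted p = 0.0839) and was called in 1 of 22 other settings (adjusted p = 0.0273). Over those settings the Scn2b difference ran from 0.17 to 0.52 (highest limma adjusted p = 0.494). Its group means were low, from 4.09 to 4.63, against array medians from 4.22 to 4.35.

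Of 8 other calcium channel genes, Cacna1a, a pore of P/Q-type channels, differed by -0.16 (SE 0.08, limma adjusted p = 0.478). Its difference from WT was -0.41 in BACE2-KO (SE 0.11, limma adjusted p = 0.401), -0.34 in hIAPP and -0.26 in hIAPP/BACE2-KO arrays. Between hIAPP/BACE2-KO and hIAPP arrays it was 0.08. With the mean over the Cacna1a probe sets, the difference of hIAPP from WT was -0.14 (SE 0.10). Over the other settings the difference from WT ran from -0.47 to -0.28 in BACE2-KO and from -0.32 to -0.12 in hIAPP/BACE2-KO. The 15 potassium channel genes held no call, and Kcnn1, a calcium-activated potassium channel, differed by 0.21 (SE 0.11). Its group means, from 3.46 to 3.93, lay near the filter level of 3.43. Of 11 TRP and other depolarising channels, the sodium leak channel gene Nalcn differed by -0.22 (SE 0.06, adjusted p = 0.17) and Trpm4, the closest relative of Trpm5, by -0.20 (SE 0.10, adjusted p = 0.45). Among 5 gap junction and pannexin genes, Gjd2, whose connexin couples beta cells electrically, differed by -0.33 in hIAPP against WT (SE 0.10, adjusted p = 0.95), and Panx2 by 0.45 (SE 0.10, adjusted p = 0.068), called in 2 of 22 other settings (lowest adjusted p = 0.0381). The group means of Panx2 were low, from 3.64 to 4.32, against array medians from 4.22 to 4.35. The 9 genes of calcium stores and pumps were all lower with the averaged transgene, with a median of -0.13 against -0.02 over all genes, but 0 were called and 0 had an unadjusted p under 0.05. In that comparison 13 of 13 beta cell markers (median -0.23), 5 of 5 delta cell markers (median -0.18) and 9 of 10 acinar markers (median -0.34) were lower. Higher were 7 of 7 stellate cell markers (median 0.51, 4 at an unadjusted p under 0.05) and 8 of 10 macrophage markers (median 0.54, 5 at that threshold). The part of these markers was not tested. Kcnj8, the KATP pore of other tissues and the 1 tested gene of its list, differed by -0.13 (SE 0.17).

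**Figure D5:**
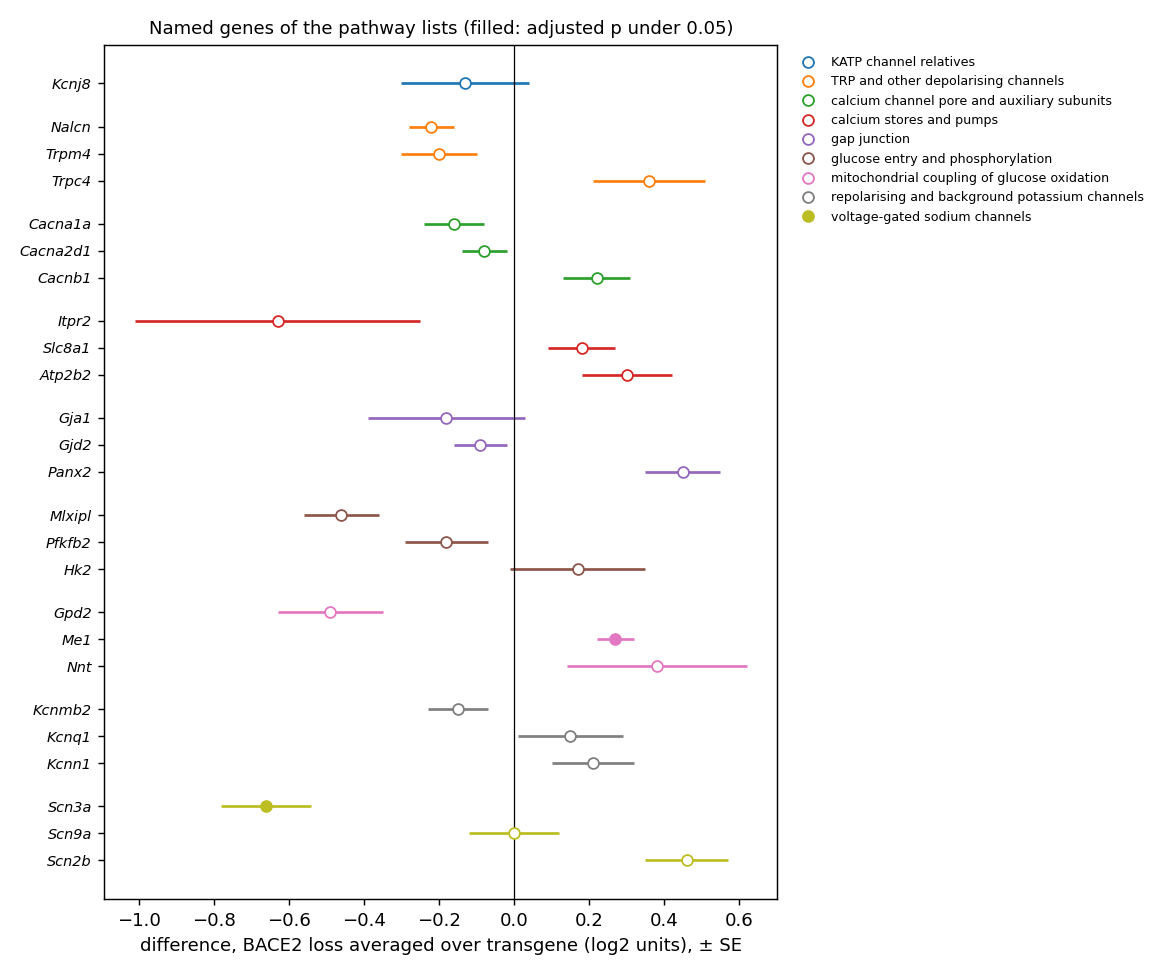
Difference for BACE2 loss averaged over the transgene in log2 units (horizontal axis), with SE, for the named genes of 9 lists on glucose metabolism and excitability, coloured by list. The filled points, past an adjusted p of 0.05, are Scn3a at -0.66 and Me1 at 0.27.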

How the data were processed

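The authors deposited 1 log2 value for each probe set on each array. The submitters' processing notes name RMA and affy, with no version, and a genome build is not given in the sources used here. RMA shares 1 scale between arrays and compresses low levels. Arrays have no read depth, and their number limits the precision. Symbols came from the platform's annotation: 28898 probe sets had 1 symbol, 551 had several, and 15692 are unnamed here. No pair of arrays was a copy (at most 2.22% equal values).

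Each gene was represented by its single-symbol probe set of highest mean over the 12 arrays. Only genes whose mean reached the 25th percentile, a log2 level of 3.43, were tested. A mean per genotype was fitted to all 12 arrays with limma 3.58.1 in R 4.3.3 (lmFit, eBayes with a trend), with two-sided tests, Benjamini-Hochberg adjustment over 12825 genes and calls at an adjusted p under 0.05. A second fit took the 45037 probe sets left without the 104 controls. The steps were tested on simulated data. Correlations are descriptions without a test. The genes, lists and tests were chosen with earlier results of these data known. Named were the 7 genes, called list members plus up to 3 with the smallest p in a list, and the 3 genes most like each of the 7. Alternatives were the filter, the probe set rule, quantile normalization, median centring, the variance model, the arrays fitted, the replicate block, array weights, acinar markers as a covariate and each array left out. Fits with beta cell markers as a covariate were chosen after seeing the data. Figures used matplotlib 3.10.9.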

Additional observations from a re-analysis of the deposited data

How the results depend on the processing

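Of 159 alternative counts of called genes among the 7, over 8 comparisons, 149 equalled the reported count. The others concern averaged BACE2 loss, where the count of 1 (Trpm5) became 0 with the mean over probe sets and without a variance trend, and ran from 0 to 1 when 1 array was left out. Of the 13 probe sets, 2 were called there, against 1 with median centring, 1 with robust eBayes, 0 without a trend, 3 with beta cell markers as a covariate, and 0 to 2 without 1 array. Of 1113 alternative values for the 56 differences of the 7 genes, 1094 kept direction and side of the threshold, counting a direction where a difference reached its SE. The 10 that lost a call were all Trpm5 under averaged BACE2 loss, with differences from 0.51 to 0.70 over all settings. The 9 that turned direction were not called in any setting. Trpm5 had the largest main differences among them, -0.30 in hIAPP against WT (SE 0.17) and -0.24 for the averaged transgene (SE 0.12). In hIAPP against WT, beta cell markers as a covariate gave Abcc8 0.17, Cacna1d 0.06 and Trpm5 0.03, and the mean over probe sets gave Cacna1c -0.13 and Cacna1d 0.02. For the averaged transgene, the covariate gave G6pc2 0, Cacna1d 0.02 and Trpm5 0.02, and the mean over probe sets gave Cacna1d 0. The cause of these changes was not tested.

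Counts over all genes moved more. Averaged BACE2 loss called 118 genes, 46 to 108 without 1 array, 83 without a trend and 205 with the replicate block. BACE2-KO against WT called 16, 5 to 11 without 1 array, 6 with the stricter filter and 36 with array weights. For hIAPP/BACE2-KO against WT the count was 17, 0 to 10 without 1 array, 4 with the beta cell covariate and 34 with array weights. Against hIAPP it was 13, 4 to 17 without 1 array, 3 with only the groups compared and 29 with the replicate block. The other 4 comparisons had 0 to 3 calls in every setting. Under averaged BACE2 loss, Mlxipl became called with median centring (adjusted p = 0.0445), array weights (0.0481), either marker covariate (acinar 0.0214, beta cell 0.0481) and without WT replicate 3 (0.027), Panx2 with the beta cell covariate (0.0381) and without BACE2-KO replicate 2 (0.0433), and Scn2b with array weights (0.0273).

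Replicate numbers are shared by the groups. With genotype means taken out, arrays of the same number had correlations from 0.09 to 0.37 for number 1. These ran from -0.13 to 0.14 for number 2 and from -0.09 to 0.29 for number 3. Of 12 arrays, 8 correlated best with their own number. The main fit did not use the numbers, and whether arrays of 1 number belong together was not tested. With the replicate block Trpm5 stood at 0.61 for averaged BACE2 loss (SE 0.09, limma adjusted p = 0.0104), where the SE was 0.12 without it. In that fit 1 of the 7 genes was called, and 205 of all genes were, against 118 without the block.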
